A study of Mus musculus with 8 samples.

Results

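A set of 10 keratin genes was followed across 8 mouse skin samples: 6 keratins of the outer root sheath and of activated epidermis (Krt6a, Krt6b, Krt16, Krt17, Krt75 and Krt79) and 4 keratins of resting epidermis (Krt5, Krt14, Krt1 and Krt10). The 10 genes were chosen by name, as keratins known from wounded or from resting epidermis, with earlier results of these data known. Each probe was assigned through its RefSeq accession. All 10 were measured, out of 14774 named genes with a probe tested. The samples came from skin of C57BL/6N mice on single-colour Agilent arrays, in a study of edited Cchcr1, a coiled-coil protein gene, in mice with patchy hair loss. The 3 groups were the hair loss skin of Cchcr1 mutants (n = 2), the normal skin of Cchcr1 mutants (n = 4) and the normal skin of mice with the wild type gene (n = 2). No age, sex or body site is given in the labels, and the mutant allele is named no further than Cchcr1 mutant. Titles carry a number and a letter that no label explains. Mutant097 covers normal skin replicates 1 and 2 with hair loss replicate 1, Mutant113 covers normal skin replicates 3 and 4 with hair loss replicate 2, and Wild001 covers both wild type samples. It is not stated whether samples came from separate animals, so p-values measure the spread between these samples only, part of which may be technical.

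Keratins are the intermediate filament proteins of epithelial cells, and each filament pairs a type I with a type II chain. Basal keratinocytes of resting epidermis build their filaments from Krt5 (type II) and Krt14 (type I), and cells that leave the basal layer switch to Krt1 (type II) and Krt10 (type I). Krt6a and Krt6b (type II) with Krt16 and Krt17 (type I) are present in the outer root sheath of hair follicles and are switched on in interfollicular epidermis after wounding, in inflammation and in hyperproliferation, which is why they are called stress keratins. Krt75 (type II) marks the companion layer between outer and inner root sheath, and Krt79 (type II) the upper follicle and the ducts of the sebaceous gland. The RNA was from whole skin, so fewer cells of a type and less RNA per cell cannot be told apart.

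In the main model, Krt75 alone of the 10 separated mutant from wild type past the threshold, while Krt5 and Krt10 had narrow ranges. The promoters of these 3 genes are therefore shown. Each is the 250 bases before the gene's start on the minus strand, from RefSeq on GRCm38.p6: chr15:101573905-101574154 for Krt75, chr15:101712906-101713155 for Krt5 and chr11:99389365-99389614 for Krt10. Capitals mark ATAAA, the core of a TATA element, read on either strand.
Krt75: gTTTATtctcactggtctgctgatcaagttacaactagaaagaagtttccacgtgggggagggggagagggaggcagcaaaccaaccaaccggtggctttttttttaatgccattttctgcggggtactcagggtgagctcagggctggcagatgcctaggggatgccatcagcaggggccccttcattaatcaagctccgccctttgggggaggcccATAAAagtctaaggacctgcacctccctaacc
Krt5: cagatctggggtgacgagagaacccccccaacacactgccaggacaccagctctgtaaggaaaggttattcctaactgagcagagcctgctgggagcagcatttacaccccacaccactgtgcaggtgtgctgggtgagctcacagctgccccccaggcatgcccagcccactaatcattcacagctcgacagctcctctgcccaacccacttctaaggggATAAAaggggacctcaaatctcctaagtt
Krt10: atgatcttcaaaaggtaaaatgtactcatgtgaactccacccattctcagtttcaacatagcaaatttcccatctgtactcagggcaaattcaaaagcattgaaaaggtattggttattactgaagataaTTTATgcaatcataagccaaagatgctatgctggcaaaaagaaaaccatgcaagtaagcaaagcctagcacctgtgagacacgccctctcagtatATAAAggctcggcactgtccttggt
Each of the 3 held ATAAA in its own direction close to the start, at positions -32 to -28 in Krt75, -29 to -25 in Krt5 and -25 to -21 in Krt10. Krt75 and Krt10 held a further match on the opposite strand, at -249 to -245 and -120 to -116. Of 32841 promoter windows of this length, 37.3% held ATAAA on either strand. TGANTCA, the element bound by AP-1, was in none of the 5 promoters searched and in 6.75% of all windows. The promoters of Krt79 and Krt14, searched in the same way and not printed, held no ATAAA in these windows. Both motifs were searched on both strands, and neither contains the other. Promoters of Krt6a, Krt6b, Krt16, Krt17 and Krt1 were not analysed here.

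Levels are log2 intensities minus the array's own 75th percentile, so 0 is that percentile and 1 unit is a doubling. They were compared between samples for 1 probe at a time, never between probes. The probe with the highest mean stood for a gene, and on every one of the 8 arrays it was well above background, the scanner software's own mark, for all 10 genes. Between 25424 and 30205 probes passed that mark per array. The 75th percentile of intensity ran from 83.1 in wild type replicate 1 to 211 in hair loss replicate 2. Wild type replicate 1 was also the lowest sample for all of the 10 keratins but Krt5 and Krt10. The part of array intensity in those levels was not tested. The skin keratins Krt5, Krt14, Krt1 and Krt10 were present on every array, as the tissue label states, and no sample is labelled as wounded. All arrays were on 1 slide, with both hair loss samples and the Mutant097 normal skin in row 1 and the other samples in row 2, so in normal mutant skin row and title number cannot be told apart. Xist RNA, made from the inactive X chromosome of females, was well above background in 3 of 3 Mutant113 samples and in 0 of 3 Mutant097 and 0 of 2 wild type samples, while the Y-linked Ddx3y was so in 3 of 3 Mutant097, 2 of 2 wild type and 0 of 3 Mutant113 samples. Comparisons of title numbers therefore also compare the sexes that these transcripts mark, and in any comparison with wild type the genotype cannot be told apart from the number in the title.

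**Figure D1:**
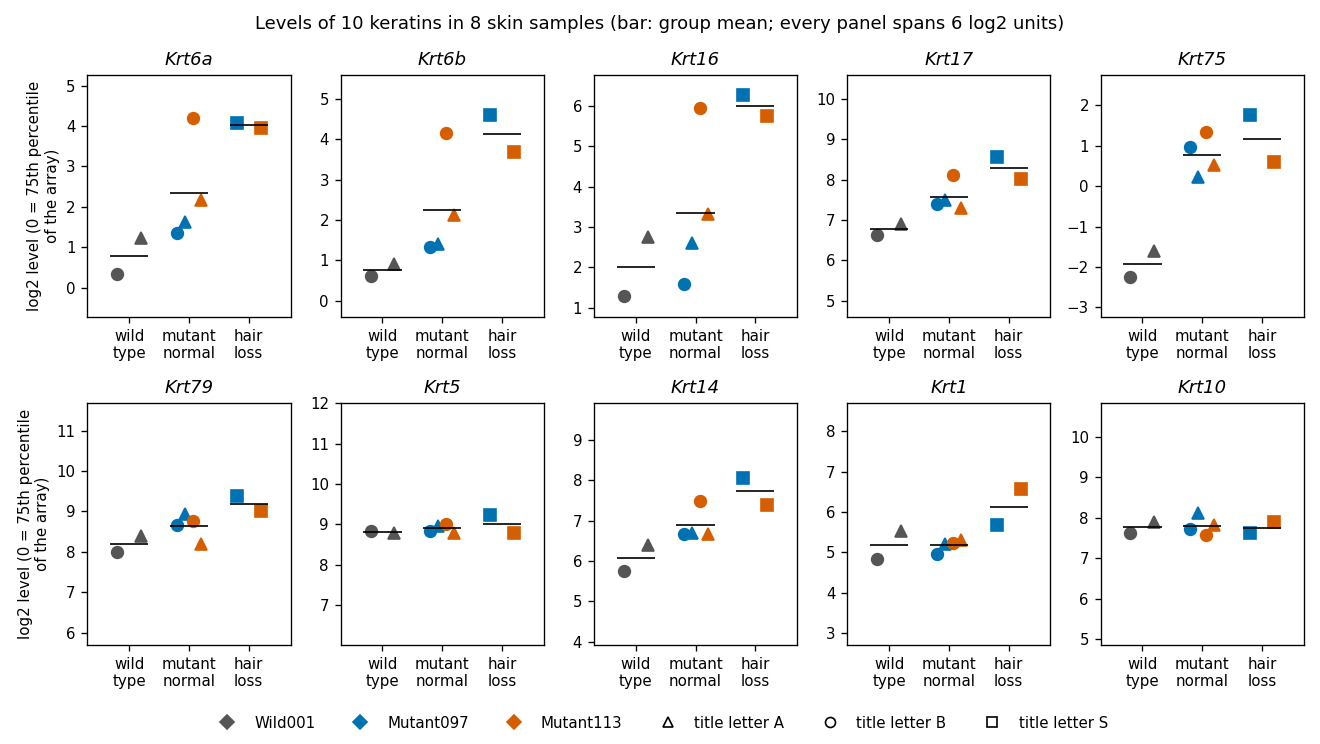
Log2 level of each keratin (vertical axis, 0 is the 75th percentile of the array) in wild type, mutant normal and hair loss skin, 1 point per sample and a bar at the group mean, every panel spanning 6 log2 units. Normal mutant skin replicate 3 (orange circle) stands with the hair loss samples for Krt6a, Krt6b, Krt16, Krt17 and Krt14. The wild type samples stand below all others for Krt6a, Krt6b, Krt17 and Krt14 and, by the widest margin, for Krt75.

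Krt6a, a widely used marker of activated keratinocytes, had log2 levels of 0.34 and 1.22 in wild type, 1.36, 1.63, 4.20 and 2.17 in normal mutant skin replicates 1 to 4, and 4.09 and 3.95 in hair loss. Normal skin replicate 3 was the highest of all 8 samples, above both hair loss samples, and the other normal skin samples lay between wild type and hair loss. The group means were 0.78 ± 0.62 (SD, n = 2), 2.34 ± 1.28 (SD, n = 4) and 4.02 ± 0.10 (SD, n = 2). Hair loss exceeded normal mutant skin by 1.68 (SE 0.73, limma adjusted p 0.957) and the wild type mean by 3.24 (SE 0.85, limma adjusted p 0.0876). Neither difference passed the threshold of 0.05, nor did the 1.56 between normal mutant skin and wild type (SE 0.73, limma adjusted p 0.325).

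Krt6b, the neighbouring and nearly identical copy of Krt6a, had levels of 0.60 and 0.92 in wild type, 1.34, 1.42, 4.15 and 2.14 in normal mutant skin, and 4.59 and 3.70 in hair loss. It followed the same order of samples at the low end, and normal skin replicate 3 lay between the hair loss samples. Its difference between hair loss and normal mutant skin was 1.88 (SE 0.75, limma adjusted p 0.936), and between hair loss and wild type 3.38 (SE 0.87, limma adjusted p 0.0855). A second Krt6b probe was well above background on 5 of 8 arrays: it read 3.21 and 3.46 in hair loss, 2.33 and -0.73 in normal skin replicates 3 and 4, and -3.35 in wild type replicate 2. How far RNA of either copy binds the probe of the other was not tested, so the levels of Krt6a and Krt6b are uncertain as separate values.

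Krt16, the type I partner of the Krt6 chains, had the widest range of the 10 genes, 4.98 log2 units. Its levels were 1.28 and 2.76 in wild type, 1.59, 2.60, 5.94 and 3.32 in normal mutant skin, and 6.26 and 5.76 in hair loss. The wild type samples overlapped the Mutant097 normal skin samples, and normal skin replicate 3 lay between the hair loss samples. Hair loss exceeded normal mutant skin by 2.65 (SE 1.07, limma adjusted p 0.938) and wild type by 3.99 (SE 1.24, limma adjusted p 0.115), neither past the threshold.

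Krt17, a type I keratin of the outer root sheath and of activated epidermis, was at 6.64 and 6.90 in wild type, 7.39, 7.49, 8.11 and 7.29 in normal mutant skin, and 8.55 and 8.02 in hair loss. All 6 mutant samples were above both wild type samples, and normal skin replicate 3 was again within the range of hair loss. The difference between hair loss and wild type was 1.52 (SE 0.32, limma adjusted p 0.0633). Between normal mutant skin and wild type it was 0.80 (SE 0.28, limma adjusted p 0.218).

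Krt75 was the only one of the 10 called at an adjusted p under 0.05 in the main model with all 8 samples. Some other settings, given further below, called other keratins as well. Krt75 read -2.24 and -1.61 in wild type, 0.98, 0.22, 1.33 and 0.53 in normal mutant skin, and 1.76 and 0.59 in hair loss. The lowest level well above background was -3.00 and -3.74 on the wild type arrays, so Krt75 was dim there. The 6 mutant samples lay above both wild type samples by more than the spread within any group, and hair loss overlapped normal mutant skin. Normal mutant skin exceeded wild type 6.47-fold, by 2.69 on the log2 scale (SE 0.42, limma adjusted p 0.0435), and hair loss exceeded wild type 8.57-fold, by 3.10 (SE 0.48, limma adjusted p 0.0326). Hair loss against normal mutant skin gave 0.41 (SE 0.42, limma adjusted p 0.999). Both calls were lost without either wild type sample, at adjusted p of 0.291 and 0.0974 for normal mutant skin and of 0.178 and 0.069 for hair loss in the same limma model. Without hair loss replicate 1 the hair loss call was lost too (0.158), as it was without normal skin replicate 4 (0.0526). The normal skin call was lost without normal skin replicate 1 (0.0790), 3 (0.0834) or 4 (0.0915), while its log2 change stayed between 2.38 and 3.01 over these alternatives. With 1 mean per title number and group both calls were lost, at adjusted p of 0.619 for normal mutant skin and 0.224 for hair loss, and so they were with no filter on dim probes (0.0760 and 0.0588). Normexp background correction, which adds an offset of 50, gave smaller changes of 1.62 (adjusted p 0.0566) and 1.92 (adjusted p 0.0321) in limma.

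Krt79, the keratin of the upper follicle, was at 8.00 and 8.40 in wild type, 8.67, 8.95, 8.76 and 8.18 in normal mutant skin, and 9.37 and 9.01 in hair loss. Both hair loss samples lay above all other samples. The margin between hair loss replicate 2 and the highest normal skin sample was small beside the spread, and the difference from normal mutant skin was 0.55 (SE 0.26, limma adjusted p 0.972). Normal skin replicate 3, high for the other stress keratins, was within the range of its group for Krt79.

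Among the resting keratins, Krt5, the type II chain of basal cells, kept a narrow range. Its levels were 8.83 and 8.79 in wild type, 8.84, 8.97, 9.01 and 8.79 in normal mutant skin, and 9.23 and 8.79 in hair loss. The whole range over the 8 samples was 0.44, with hair loss replicate 1 the highest, and the groups overlapped. The difference between hair loss and wild type was 0.20 (SE 0.21, limma adjusted p 0.570). A second Krt5 probe, between 2.45 and 3.33 on its own scale, gave -0.14 (SE 0.31) for the same difference.

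Krt14, the type I partner of Krt5, did not share that narrow range. It was at 5.76 and 6.39 in wild type, 6.66, 6.69, 7.49 and 6.67 in normal mutant skin, and 8.06 and 7.39 in hair loss. Normal skin replicates 1, 2 and 4 lay within 0.03 of each other, and replicate 3 stood between the hair loss samples. All 6 mutant samples were above both wild type samples. The gap between hair loss and wild type was 1.65 (SE 0.38, limma adjusted p 0.0742), and the gap between hair loss and normal mutant skin 0.85 (SE 0.33, limma adjusted p 0.935). Between normal mutant skin and wild type it was 0.80 (SE 0.33, limma adjusted p 0.275), and no gap passed the threshold.

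Krt1, the type II chain of the suprabasal layers, was at 4.83 and 5.53 in wild type, 4.95, 5.21, 5.23 and 5.29 in normal mutant skin, and 5.68 and 6.56 in hair loss. The hair loss samples were above all others, and normal skin replicate 3 was not set apart. Hair loss exceeded normal mutant skin by 0.95 (SE 0.30, limma adjusted p 0.801), the smallest unadjusted p of the 10 genes in that comparison at 0.0136. Its partner Krt10 was at 7.61 and 7.91 in wild type, 7.73, 8.12, 7.56 and 7.82 in normal mutant skin, and 7.61 and 7.89 in hair loss. The groups overlapped throughout, the differences ran from -0.05 to 0.05, and the second Krt10 probe gave -0.06 to -0.02.

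**Figure D2:**
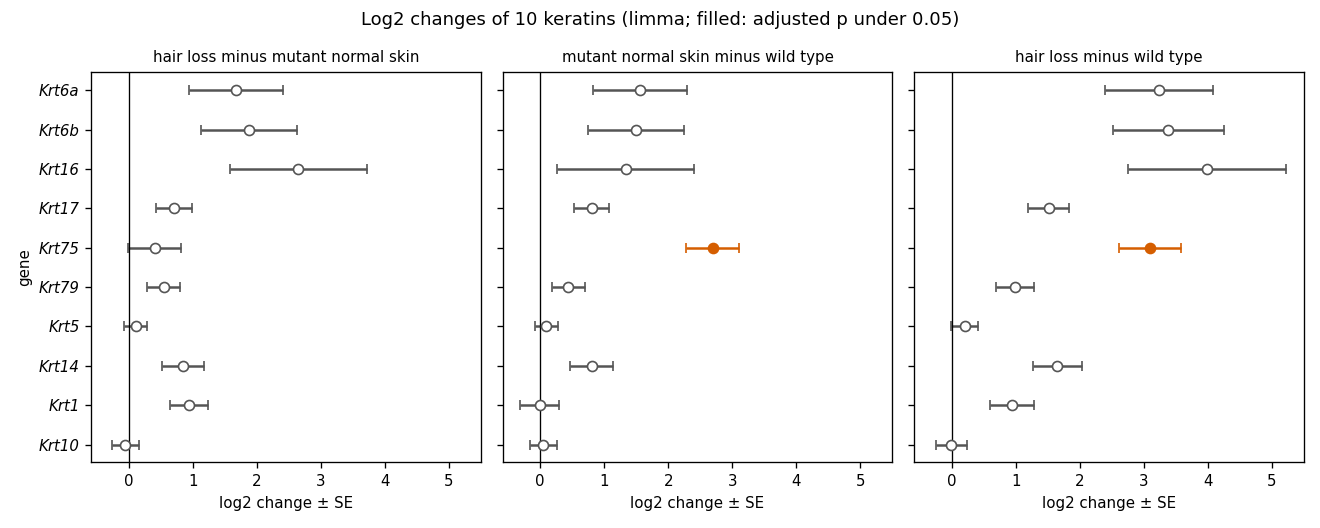
Log2 change (horizontal axis, with the SE of the limma model as bars) of each keratin in the 3 comparisons of groups, filled where the adjusted p was under 0.05. Krt75 against wild type, at 2.69 and 3.10, is filled, and Krt5 and Krt10 lie near 0 in each panel.

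Set side by side, the stress keratins of hair loss skin stood above those of normal mutant skin, and none of the 10 genes was called in that comparison. Of the 6 stress keratins 6 were higher and of the 4 resting keratins 3 (Krt10, at -0.05, was at 0.0028 after normexp), with median log2 changes of 1.20 and 0.48, against a median of -0.01 over all 30417 probes. By limma 0 of the 10 keratins and 0 of all probes (0% of them) passed, while 5 of the 10 and 1582 probes had an unadjusted p under 0.05. Both hair loss samples exceeded all 4 normal skin samples for 2 of the 10, Krt79 and Krt1, where 5.73% of all probes did so.

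In normal skin, mutants against wild type gave 1 call among the 10, Krt75, where 0.694% of all probes were called. The median change was 1.42 for the stress keratins and 0.07 for the resting keratins, against -0.04 for all probes. All 4 mutant samples exceeded both wild type samples for 5 of the 10 (Krt6a, Krt6b, Krt17, Krt75 and Krt14), where 13.6% of all probes did so.

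Against wild type, hair loss skin also gave 1 call, Krt75, where 1.42% of all probes were called. The medians were 3.17 for the stress keratins, 0.57 for the resting keratins and -0.06 for all probes. Both hair loss samples exceeded both wild type samples for 8 of the 10, all but Krt5 and Krt10, where 24.8% of all probes did so. The 3 comparisons share samples, so their values are not independent of each other. The keratins were chosen with earlier results of these data known, so the shares of all probes beside their counts are no test.

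The number of keratins called in hair loss against wild type changed when single samples were left out. Normal skin samples enter this comparison through the shared estimate of spread only. With either wild type sample, hair loss replicate 1 or normal mutant skin replicate 4 left out, 0 of the 10 were called, and 0.858% of all probes in the last of these. Without normal mutant skin replicate 3, 6 of the 10 were called: Krt6a (3.24, adjusted p 0.0132), Krt6b (3.38, adjusted p 0.0133), Krt16 (3.99, adjusted p 0.0366), Krt17 (1.52, adjusted p 0.0376), Krt75 (3.10, adjusted p 0.0252) and Krt14 (1.65, adjusted p 0.0497), all by limma, where 2.33% of all probes were called. The same setting left 0 of the 10 called between hair loss and normal mutant skin, where Krt16 stood at 3.51 (adjusted p 0.214), Krt6b at 2.51 (adjusted p 0.157) and Krt6a at 2.30 (adjusted p 0.170). With the slide row as a block, 4 of the 10 were called in hair loss against wild type by limma: Krt16 (6.52, adjusted p 0.0416), Krt6b (5.15, adjusted p 0.0304), Krt6a (4.93, adjusted p 0.0342) and Krt75 (3.43, adjusted p 0.0489), where 4.38% of all probes were called. Both hair loss samples were in row 1 and both wild type samples in row 2, so the row effect in that model came from the Mutant097 and Mutant113 normal skin alone, and the values hold the difference between those numbers (2.54 for Krt16) as well. Row and group cannot be told apart in this comparison.

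The lesion difference was then taken within each title number, as 1 hair loss sample against 2 normal skin samples. In Mutant097, Krt16 was higher by 4.17 (SE 1.19), Krt6b by 3.21 (SE 0.78), Krt6a by 2.59 (SE 0.84) and Krt14 by 1.38 (SE 0.43) in hair loss skin. In Mutant113 the same genes gave 1.13 (SE 1.19), 0.55 (SE 0.78), 0.77 (SE 0.84) and 0.31 (SE 0.43). Krt1 had the opposite order, 0.60 in Mutant097 and 1.30 in Mutant113 (SE 0.34 for both), and Krt79 was alike at 0.56 and 0.54. None of the 10 was called within either number by limma, where 0.628% and 0.00329% of all probes were called. An unadjusted p under 0.05 was reached by 5 and 1 of the 10, and by 13.0% and 4.8% of all probes. The Mutant113 values rested on normal skin replicate 3: without it Krt16 was higher by 2.44, Krt6b by 1.56 and Krt6a by 1.78, and without replicate 4 the same genes gave -0.18, -0.46 and -0.25. In each number the lone hair loss sample is assumed to vary like the other groups.

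Whether the lesion difference itself differed between the numbers was tested as an interaction. For Krt16 the Mutant113 difference was smaller by 3.03 (SE 1.68, limma adjusted p 0.652), and for Krt6b by 2.66 (SE 1.1, limma adjusted p 0.542). Without normal skin replicate 3 these became -1.72 and -1.65, and without replicate 4 they became -4.34 and -3.67, none of them called. By limma 0 of the 10 and 0% of all probes passed, with 0 of the 10 and 2889 probes at an unadjusted p under 0.05, so no difference between the numbers passed the test in this setting. None of the 10 was called under any alternative run for this test, while 287 probes were called with normexp, 3 with quantile normalization, 4 with the filter for all 8 arrays and 25 without normal skin replicate 2. All 6 stress keratins had an interaction below 0, with a median of -1.66 against 0.04 for all probes, although that of Krt79 was 0.69 after quantile normalization and 0.024 after normexp background correction.

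**Figure D3:**
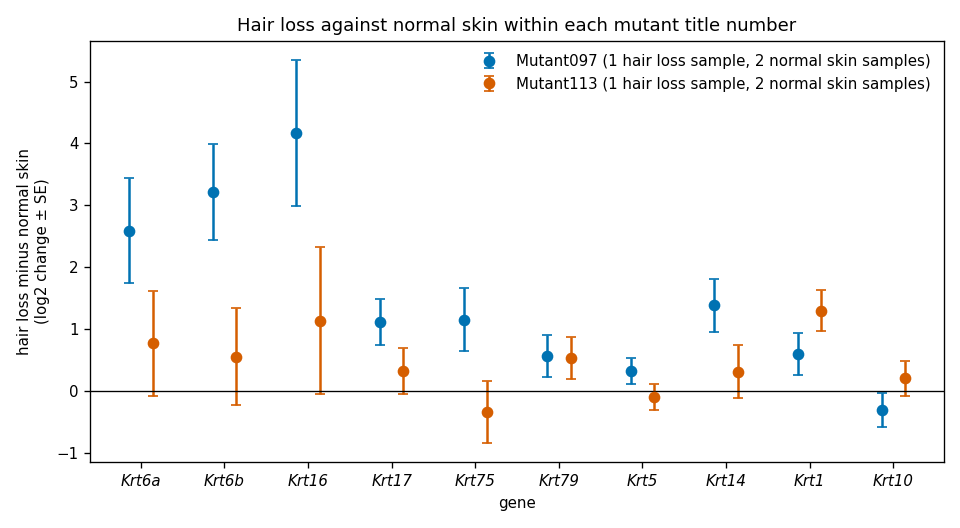
Hair loss minus normal skin (vertical axis, log2 change with the SE of the limma model) of each keratin within Mutant097 (blue) and Mutant113 (orange). Krt16 stands at 4.17 and 1.13, Krt6b at 3.21 and 0.55, and Krt79 at 0.56 and 0.54.

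The normal skin of the 2 numbers was compared for the same genes. In the means, Mutant113 exceeded Mutant097 by 2.54 for Krt16 (SE 0.97, limma adjusted p 0.300), 1.77 for Krt6b (SE 0.64, limma adjusted p 0.282) and 1.69 for Krt6a (SE 0.69, limma adjusted p 0.324). None of the 10 was called, and 0.266% of all probes were called by limma. An unadjusted p under 0.05 was reached by 2 of the 10 and by 15.8% of all probes. Without normal skin replicate 3 the difference was 1.23 for Krt16, 0.76 for Krt6b and 0.68 for Krt6a. Normal skin replicate 4, the other Mutant113 sample, was still the second highest normal skin sample of the mutants for these 3 genes.

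The 2 kinds of keratin were also set against each other within each sample. The mean of the 6 stress keratins above wild type, minus that of the 4 resting keratins, was 2.31 and 1.70 in hair loss and 0.70, 0.66, 2.28 and 0.98 in normal mutant skin replicates 1 to 4. Normal skin replicate 3 fell between the hair loss samples, and the other 3 normal skin samples were below both. In normal skin replicates 1 and 2 the mean leaned on Krt75, the companion layer keratin. It was 2.91 and 2.15 above wild type there, and the other stress keratins were between -0.43 and 0.85.

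**Figure D4:**
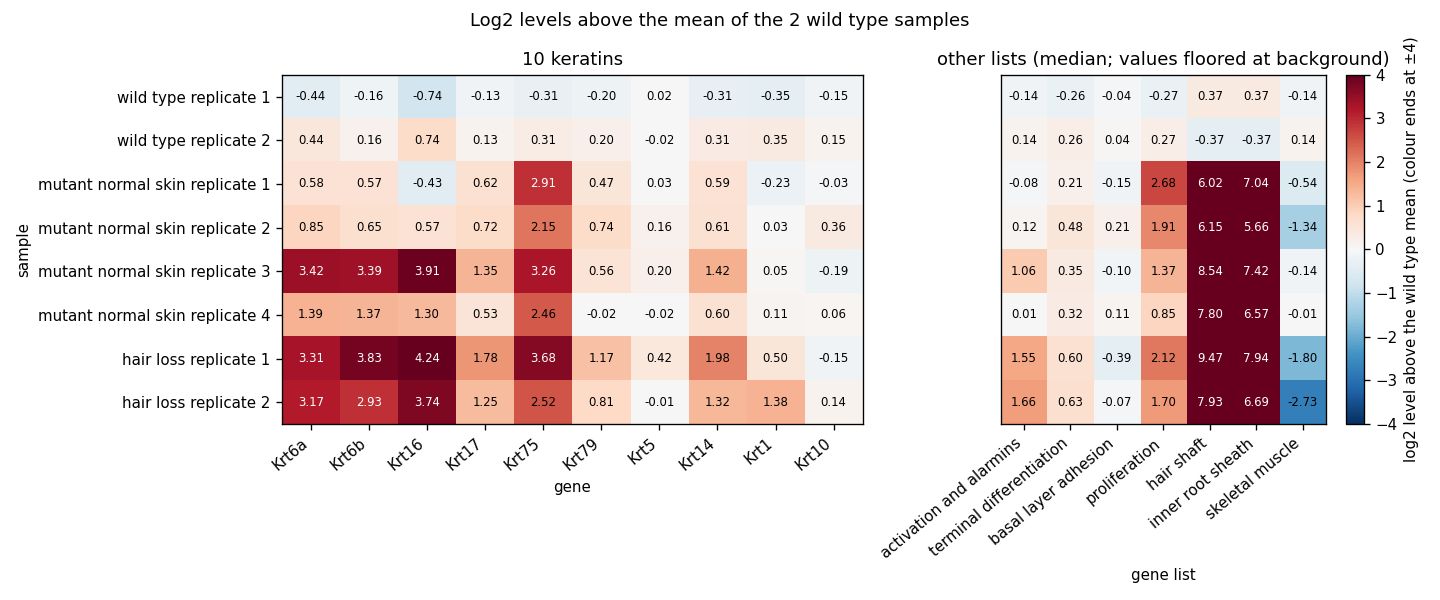
Log2 level above the mean of the 2 wild type samples, for the 10 keratins (left) and the median of the genes of 7 other lists (right, with values on each array not taken below the lowest level well above background), 1 row per sample. Normal mutant skin replicate 3 is close to the hair loss rows for Krt6a, Krt6b and Krt16, stands between the other normal skin rows and the hair loss rows for activation and alarmins (1.06, against 1.55 and 1.66 in hair loss), and is apart from hair loss for skeletal muscle (-0.14).

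Other genes of activated epidermis were read from a list of 18 alarmins, cornified envelope precursors and cytokines, of which 16 were tested. They were higher in hair loss than in normal mutant skin for 15 of 16, with a median of 1.07, and by limma 0 of 16 were called in any of the 3 comparisons. Sprr2d and Sprr2e were not well above background in wild type and were dim in normal mutant skin, so the sizes of their changes are uncertain. Sprr1a, a cross-linked precursor of the cornified envelope that rises after wounding, was at 5.38 and 5.47 in wild type, 6.10, 6.21, 7.67 and 6.68 in normal mutant skin, and 7.89 and 7.49 in hair loss. S100a9, a subunit of the calprotectin alarmin, was at 0.83 and 1.81 in wild type, 1.30, 0.87, 2.40 and 1.52 in normal mutant skin, and 2.86 and 2.47 in hair loss. In both genes normal skin replicate 3 was the highest of the normal skin samples, and for Sprr1a it lay between the hair loss samples. Il33, a nuclear alarmin, ranged from 0.34 to 1.47, with hair loss replicates 1 and 2 at either end.

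A further 2 genes of this list were picked after their values were seen. Sprr2h was not well above background in wild type, and stood at least 74.1-fold above it in hair loss and at least 13.8-fold in normal mutant skin. The bound is taken from the lowest level well above background on each wild type array. The limma adjusted p of 0.0786 and 0.19, not past the threshold, used the measured levels and do not test the bound. Il36a, an epidermal cytokine of the IL-1 family, was higher in hair loss than in normal mutant skin by 3.48 (SE 0.97, limma adjusted p 0.758). Its level was 0.89 and 1.84 in hair loss and -3.13, -1.97, -0.16 and -3.19 in normal mutant skin.

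The signals and factors known to act on stress keratin genes, among them epidermal growth factor receptor ligands, AP-1 subunits and Gli factors, formed a second list. Of 20 tested, 11 were higher in hair loss than in normal mutant skin (median 0.04) and 17 higher in normal mutant skin than in wild type (median 0.60), with 0 called by limma. The 3 brightest, chosen by that rule, were Jun, Klf4 and Stat3. Jun, an AP-1 subunit, was at 4.53 and 4.66 in wild type and between 4.86 and 5.70 in the 6 mutant samples, without overlap. Of all probes, 13.6% were higher than wild type without overlap in normal mutant skin and 24.8% in hair loss. Klf4 and Stat3 overlapped between all groups, from 4.50 to 5.55 and from 4.28 to 4.80.

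Genes of terminal differentiation of interfollicular epidermis were called in hair loss against wild type for 2 of 17, Casp14 and Klk7. In that comparison 1.42% of all probes were called. Casp14, the caspase of cornification, was higher by 2.56 (SE 0.31, limma adjusted p 0.0139), and Klk7, a protease that cleaves the links between corneocytes, by 1.72 (SE 0.29, limma adjusted p 0.0382). Of the 17, 14 were higher in hair loss than in wild type, with a median of 0.63, and 12 were higher than in normal mutant skin, with a median of 0.41. Genes of basal layer adhesion did not follow Krt14: of 10 tested, 2 were higher in hair loss than in normal mutant skin, with a median of -0.19. Plec, Itga6 and Col7a1, the brightest of them, had ranges over the 8 samples of 5.47 to 6.04, 5.49 to 5.88 and 4.12 to 4.87.

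Desmosomal and other partners of keratin filaments were higher in hair loss than in wild type for 10 of 10, with a median of 0.49 and 0 called. Perp, Pkp1 and Evpl, the brightest, had levels of 8.18 to 8.78, 6.25 to 7.26 and 5.87 to 7.21, with wild type replicate 1 the lowest sample for all 3. Of 13 other keratins of epidermis and simple epithelia, 10 were higher in hair loss than in normal mutant skin (median 0.11), and 0 were called in any of the 3 comparisons. Krt15, a basal keratin of resting follicle stem cells, was at 7.73 and 7.83 in wild type, 7.57, 7.91, 7.24 and 7.66 in normal mutant skin, and 6.62 and 7.14 in hair loss. Its lowest 3 samples were the 2 hair loss samples and normal skin replicate 3, the samples highest for Krt16. Hair loss was below wild type by 0.90 for Krt15 (limma adjusted p 0.112), Krt23 was at 5.50 and 6.13 in wild type and between 6.25 and 6.68 in the mutants, and Krt77 overlapped between the groups. Krt23 stood above wild type without overlap, as 13.6% of all probes did in normal mutant skin and 24.8% in hair loss.

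Hair shaft genes, and most inner root sheath genes, moved with Krt75. Other follicle markers, taken up in the next paragraph, were mixed in direction against wild type, and none of them was called. Of 10 hair shaft genes tested, 8 were called higher in normal mutant skin and 9 in hair loss than in wild type, and of 9 inner root sheath genes 7 and 7. In these comparisons 0.694% and 1.42% of all probes were called, in either direction. Wild type arrays had 3 of 10 hair shaft genes well above background on each array and 7 and 5 of 9 inner root sheath genes, against 10 of 10 and 8 to 9 of 9 on each mutant array. Krt33a, a hair shaft keratin, was at least 685-fold higher in normal mutant skin and at least 2150-fold in hair loss (limma adjusted p 0.0107 and 0.00893). Krt26, of the inner root sheath, was at least 50.6-fold and at least 101-fold higher (limma adjusted p 0.012 and 0.0106). Neither gene was well above background in wild type, so both passed the filter through mutant arrays only, as did other hair shaft genes. Their p-values come from the measured levels, below background in wild type, and do not test these bounds. The median of the inner root sheath list above wild type ran from 5.66 to 7.42 in normal mutant skin and stood at 7.94 and 6.69 in hair loss, so Krt75 and these genes were high in the same 6 samples. Their part in the Krt75 result was not tested.

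Of 12 genes of the outer root sheath, isthmus and infundibulum, 8 were higher in hair loss than in normal mutant skin (median 0.19), with 0 called. Cst6, a cystatin of the upper follicle, was at 8.55 and 8.29 in wild type, 8.39, 8.92, 9.13 and 8.50 in normal mutant skin, and 9.65 and 9.08 in hair loss. Cd34, on cells of the follicle bulge and on vessels, was at 7.10 and 7.03 in wild type, 6.33, 6.61, 5.70 and 6.32 in normal mutant skin, and 5.65 and 5.58 in hair loss. The 3 lowest samples for Cd34 were again both hair loss samples and normal skin replicate 3. Defb6 showed no such order, with levels from 6.04 to 6.95.

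Proliferation genes were higher in mutants than in wild type, 8 of 8 in both comparisons with medians of 1.90 and 2.23, and 0 were called. Mki67, a marker of cycling cells, was at 1.30 and 1.76 in wild type, 4.43, 3.71, 3.18 and 2.79 in normal mutant skin, and 4.04 and 3.43 in hair loss. Here the Mutant097 normal skin samples were above the Mutant113 ones, the reverse of their order for Krt16. Birc5 had the same order, and Pcna overlapped between the groups.

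Markers of other cell types were compared because whole skin varies in depth and content. Skeletal muscle genes were lower in hair loss than in normal mutant skin for 8 of 8, with a median change of -1.79, and 0 were called. Within Mutant097 these changes ran from -2.55 (Myh1) to 0.72 (Myh4), and within Mutant113 from -4.36 (Myh2) to -1.85 (Myh1). The median of the muscle list above wild type was -1.80 and -2.73 in hair loss, and -0.54, -1.34, -0.14 and -0.01 in normal mutant skin. Replicate 3, at -0.14, was close to hair loss for Krt6a, Krt6b and Krt16 and below both hair loss samples for Krt79. Fibroblast and macrophage genes were lower against wild type in both kinds of mutant skin, 4 of 4 of each, with 0 called. The fibroblast medians were -0.98 in normal mutant skin and -1.04 in hair loss, and the macrophage medians -0.87 and -0.84. The summed fibroblast level was 10.4 and 10.9 (log2) in wild type and 8.85 to 10.3 in the 6 mutant samples, and that of macrophage genes 6.97 and 7.10 against 5.70 to 6.59, without overlap, though narrowly for fibroblast genes, in the samples that Krt75 also set apart. The share of all probes lower than wild type without overlap was not counted. In normal skin, fibroblast genes were also lower in Mutant113 than in Mutant097, with a median of -1.31. Lists of adipocytes, fibroblasts, macrophages, neutrophils, T cells, endothelium and sebocytes had median changes between hair loss and normal mutant skin of -0.29 to 0.20 and 0 calls. Melanocyte genes gave 0.70, and 2.36 and 3.06 for normal mutant skin and hair loss against wild type, with 0 called. The part of any of these in the keratin differences was not tested.

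Genes with the most similar profile over the 8 arrays were found by the root mean square difference of log2 levels after each gene's mean was removed, among 15864 probes with a single symbol that were well above background on all arrays. For Krt6b the nearest were Krt6a (0.256), Acp7 (0.301) and Gpx2 (0.312), beside an own SD of 1.46. For Krt16 they were Lce3c (0.387), Lce3b (0.444) and Krt6a (0.579), beside an own SD of 1.88. Lce3b and Lce3c encode late cornified envelope proteins, and Lce3c was at 2.87 and 2.67 in hair loss and 2.17 in normal mutant skin replicate 3, with the other 5 samples between -1.61 and 0.58. Krt17 had Prss8, Prss12 and Tmem40 (0.106 to 0.111), and Krt79 had Tmem132a, Tnfaip8l1 and Slc25a13 (0.112 to 0.142). Krt10 had Stat6, Rftn1 and Lgals8 (0.0486 to 0.0665), beside an own SD of 0.177. Krt75, added to this search after its values were seen, had Mybl2, Msx2 and Samd5 (0.293 to 0.305), beside an own SD of 1.31. Msx2, a homeobox factor of the hair follicle, was at -0.57 and -0.74 in wild type, 2.87, 1.50, 2.49 and 1.80 in normal mutant skin, and 3.42 and 1.96 in hair loss.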

How the data were processed

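Each of the 8 skin RNAs went on its own single-colour Agilent array, in groups of 2, 4 and 2. Per the file headers the spots hold intensities, background-corrected within each array by Feature Extraction, version 11.5.1.1 per the submitters' processing notes. The deposited matrix holds log2 values that equal the log2 intensity after 1 shift per array, which puts the 75th percentile near 0. Here the log2 processed intensity was averaged over the spots of a probe, without marked outliers, and the 75th percentile of the array was subtracted. Probes well above background on at least 2 of 8 arrays were tested, 30417 in all, of which 19195 had a symbol in the RefSeq table (GRCm38.p6).

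The 3 groups were fitted together, over all arrays, in a linear model with limma 3.58.1 in R 4.3.3 (5 residual and 2.71 prior degrees of freedom), two-sided, with Benjamini-Hochberg adjustment over all probes and a threshold of 0.05. A second model with 1 mean per group and title number gave the interaction. With 2 to 4 arrays per group, their number limits the precision. The fits were tested on simulated data. The keratins and the gene lists were chosen with earlier results of these data known. Named were the 10 keratins, at most 5 called genes of each list or its 3 with the highest mean, and the 3 nearest profiles. Of 193 list genes, 7 were matched to no probe and 178 were tested.

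The alternatives were other normalizations, background corrections (normexp on median signals, the files used here holding no mean signals) and filters, the deposited matrix, title number or slide row as a block, each number alone and leaving out each sample. Deviations of same-numbered samples from their group means had a correlation of 0.13 across probes. The deviations of Mutant097 mirror those of Mutant113, so this single value cannot show that same-numbered samples are independent. No label says what the number marks, and samples were not treated as paired. Same-numbered samples were alike in Xist and Ddx3y, so they may not be separate replicates. With 1 mean per title number and group, both Krt75 calls were lost.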

Additional observations from a re-analysis of the deposited data

Results flagged for a closer look

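Krt14, the type I keratin of basal cells, had 1 sample far from the others among the 4 normal skin samples of the mutants. Replicate 3 stood at 7.49 while the others lay between 6.66 and 6.69, a gap of 0.972 of the whole range, above Dixon's critical value for 4 samples. Of the 10 keratins tested this way in this group, 1 passed, and chance sets apart about 1 in 20 groups. The same sample was also the highest of its group for Krt6a, Krt6b, Krt16, Krt17, Krt75 and Krt5, where no gap exceeded that value (0.764 of the range at most, for Krt17). Its part in the differences between groups is given beside them, and the cause of its levels was not tested.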

How the results depend on the processing

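Of 50 log2 changes (10 keratins in 3 comparisons of groups, the interaction and the difference between title numbers), 749 values under the alternatives kept the direction reported in 709 and reversed it in 40. The reversals are given below by gene, and the 6 stress keratins stayed above wild type in both comparisons with wild type under every alternative run. Much of this agreement was fixed in advance. The filters, the title number block and 1 mean per number and group leave a log2 change as it was. So does leaving out a sample outside the comparison, and the deposited matrix differs by little more than 1 shift per array. The counts of keratins called were less stable. In hair loss against wild type, 1 was called as reported, and 0 with 1 mean per title number and group, with Mutant113 alone or with no filter. With normexp there were 3 (Krt17, Krt75 and Krt14), with the slide row as a block 4, with the filter for all 8 arrays 2, and 0 to 6 without 1 sample. In normal skin of mutants against wild type, 1 was called as reported, 0 with 1 mean per title number and group, with Mutant097 alone, with no filter or with normexp, and 0 to 1 without 1 sample. With the title number as a replicate block, 0 of the 10 and 0 probes were called between hair loss and normal skin of mutants, as without the block. Fewer or more samples alter the estimate of spread, and dimmer probes without a filter alter the number of tests; the other causes were not tested.

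Over all probes, 432 were called in hair loss against wild type, and 0 to 708 without 1 sample (2 without hair loss replicate 1, 261 without normal skin replicate 4, 10 and 0 without wild type replicates 1 and 2). It was 1835 with Mutant097 alone, 1332 with the row block, 183 with no filter and 0 with 1 mean per number and group. In normal skin of mutants against wild type, 211 were called, and 0 to 191 without 1 sample (116 and 75 without normal skin replicates 3 and 4, 10 and 0 without wild type replicates 1 and 2). It was 991 with Mutant113 alone, 856 with the row block, 128 with no filter, 64 with the filter for all 8 arrays and 0 with 1 mean per number and group. Between hair loss and normal skin of mutants, 0 became 191 with Mutant097 alone, 1 with Mutant113 alone, 9 without hair loss replicate 2 and 11 without normal skin replicate 3. The interaction went from 0 to 287 with normexp, 3 with quantile normalization, 4 with the filter for all 8 arrays and 25 without normal skin replicate 2. The 81 between the numbers became 465 with normexp, 146 with quantile normalization, 19 with no filter, 30 with the filter for all 8 arrays, and 6 to 99 without 1 sample.

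The reversed values were these. For Krt1, normal skin of mutants against wild type moved from -0.01 to 0.080 with Mutant113 alone or the row block and 0.17 with normexp, and ran from -0.36 to 0.34 without 1 sample. For Krt10 the same change moved from 0.05 to -0.066 with Mutant113 alone or the row block, -0.0023 with quantile normalization and -0.016 with its other probe, and ran from -0.10 to 0.20 without 1 sample. Krt10 in hair loss went from -0.05 against normal skin to 0.20 (Mutant113 alone) and 0.0028 (normexp), and from -0.01 against wild type to 0.14 and 0.20, with ranges without 1 sample of -0.19 to 0.087 and -0.15 to 0.14. Krt5 in hair loss went from 0.11 against normal skin to -0.10 with Mutant113 alone (-0.11 to 0.33 without 1 sample). Against wild type it went from 0.20 to -0.015 with Mutant113 alone and -0.14 with its other probe (-0.015 to 0.42 without 1 sample), and normal skin of mutants went from 0.09 to -0.36 with that probe. Krt75 in hair loss against normal skin went from 0.41 to -0.34 with Mutant113 alone and ran from -0.18 to 0.99 without 1 sample. Between the numbers, Krt5 went from -0.01 to 0.15 with normexp and 0.089 with quantile normalization (-0.12 to 0.10 without 1 sample), and the ranges without 1 sample were -0.0032 to 0.82 for Krt14, -0.14 to 0.68 for Krt17 and -0.0725 to 0.73 for Krt75. The interaction went from -0.43 to 0.20 for Krt5 with quantile normalization, and for Krt79 from -0.03 to 0.024 with normexp and 0.69 with quantile normalization, with a range of -0.32 to 0.26 without 1 sample.

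All 10 keratins were well above background on every array, and the number of arrays limits the precision. Krt75 was dim in wild type, with processed intensities of 17.6 and 52.3, which also limits its changes against wild type.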
